A study of Mus musculus with 18 samples.

Results

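The comparison described here sets nuclei pulled from frozen liver against nuclei pulled from fresh liver of the same fasted mice. HEP-INTACT mice carry a tag on hepatocyte nuclei, so that these can be captured from a liver suspension by immunoprecipitation (IP) while the other nuclei stay in the supernatant. The members are 6 of the 18 libraries of the series, the 3 frozen IP libraries and the 3 fresh IP libraries of fasted mice, paired by the column letter A, B or C. The question, as far as the labels give it, is what freezing the tissue before the preparation does to the RNA profile of captured hepatocyte nuclei. All mice were female HEP-INTACT animals, killed at one time of day. The fasted mice had no food for 16 h, beginning when the lights went off (zeitgeber time 12), and the fed mice, used here only for reference, ate ad libitum. Supernatants of fresh liver, labelled non-hepatocyte nuclei, served as a reference for RNA of the other liver cells. Every group held 3 libraries from separate mice, all groups carried the tag and no untagged liver was among them. The age, the strain background and the promoter or Cre line that drives the tag are not stated in the sources used here.

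Most of the liver's mass is hepatocytes, which make the plasma proteins, glucose, bile acids and detoxifying enzymes. The remaining nuclei belong to sinusoidal endothelial cells, Kupffer cells (the resident macrophages), stellate cells (which store vitamin A and make collagen), lymphocytes and the epithelial cells of the bile ducts. Nuclear RNA holds both unspliced and spliced transcripts. The libraries were made without poly-A selection.

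Fresh libraries held 33242961 to 54434263 counts over genes and frozen libraries 41178186 to 43814180. The 10 most abundant genes took 6.47 to 7.41% of the counts in these 6 libraries. Titles give the same mouse number to a fresh and a frozen library. Libraries with the same letter deviated together from their group means (r = 0.897 to 0.932 over 8185 genes), and letters were therefore kept as pairs. Different letters gave r = -0.630 to -0.162. Centring each group on the mean of its 3 libraries pushes these values below 0, so they add no support of their own. The label of hepatocyte nuclei held in both preparations. The 24 hepatocyte markers summed to 27520 to 32910 CPM (counts scaled to a library total of 1000000) in fresh IP and 26453 to 30820 CPM in frozen IP, against 1492 to 2416 CPM in the supernatants of the same mice. Sun1, an inner nuclear envelope protein whose tagged form is the usual handle of INTACT lines, was at 267, 171 and 186 CPM in fresh IP and 224, 168 and 188 CPM in frozen IP of letters A, B and C. The fresh and frozen levels of Sun1 overlapped (difference -0.11 ± 0.08 on the log2 scale, SE over 3 pairs, adjusted p = 0.053).

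Across the genome the frozen and fresh profiles were close, and the largest rises were in genes that the supernatant holds at a higher level. Of 12720 genes tested with edgeR's quasi-likelihood test with the letter as a block, 2939 passed a Benjamini-Hochberg adjusted p under 0.05, which is 23.1% of those tested. Of these, 1402 genes (11% of those tested) were higher and 1537 (12.1%) were lower in frozen IP. The directions differed in size. The called genes that were higher had a median difference of 0.78 on the log2 scale and 559 of them exceeded a fold of 2 (4.39% of the tested genes), whereas those that were lower had a median of -0.20 and 3 exceeded it (0.0236%). A gene entered the test when 3 of the 6 libraries reached 0.239 CPM. Of the 1402 higher genes, 1148 reached it in all 3 fresh libraries, and the rest include genes that entered through frozen IP, where they are high. The median over all tested genes was -0.01, and 90.2% of them lay within 0.5 log2 units of 0. Tested against a fold of 1.2, 659 genes were higher (5.18%) and 79 lower (0.621%). The edgeR test shares information on variation across genes. Its p-values are therefore not derived from the SE over 3 pairs printed beside them, and do not measure that spread.

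The calls rest on the pairing by letter. Without the block, 63 genes were called (0.495%), 61 higher (0.48%) and 2 lower (0.0157%), and with any single library left out as well the count was 0 or 1. With the block kept and the pair of letter A left out, the count fell to 1914. The number of lower calls also moved with the scaling. When libraries were scaled on the genes that fed mice express more in IP than in supernatant, the median of all genes rose by 0.04 log2 units and the split turned from 1402 higher and 1537 lower (47.7% of calls higher) to 2002 higher and 900 lower (69.0% higher). Of the lower calls, 900 were kept under that scaling, and no gene was called in opposite directions.

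Genes were sorted by the fraction in which the 3 fed mice express them more, using fresh libraries that enter no part of the comparison above. Among 4067 tested genes that were higher in the fed supernatant, 1026 rose (25.2%) and 184 fell (4.52%) in frozen IP of the fasted mice. Their median was 0.09. Over all tested genes 11% rose and 12.1% fell. Of the supernatant class, 518 genes were below the low-count limit of 0.239 CPM in a fresh library, and some of these entered through frozen IP. Among the 3549 others 787 rose and 184 fell, with a median of 0.06. Of all 11993 tested genes that reached the limit in every fresh library, 1148 rose. Among 5210 tested genes that were higher in fed IP, 250 rose (4.80%) and 974 fell (18.7%), with a median of -0.04. Of these 5210 genes 98.5% lay within 0.5 log2 units of 0. The 3236 genes in neither class gave 109 that rose (3.37%) and 377 that fell (11.7%), the latter near the 12.1% of all tested genes. Of the 559 called genes past a fold of 2, 532 belonged to the supernatant class, and so did all 61 genes called higher without the block. With scaling on the IP class, that class gave 551 genes higher and 586 lower and the supernatant class 1182 higher and 99 lower. That scaling sets the IP class near 0 by construction, so its even split cannot decide on the excess of small decreases. With DESeq2 size factors in edgeR the IP class gave 246 higher and 958 lower, and with total counts only 332 and 762.

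The size of the rise followed how strongly a gene was depleted by the pull-down in the fed mice. At a fed IP minus supernatant difference of -8 log2 units or below, 156 of 164 genes rose in frozen IP, with a median difference of 1.74. The median was 1.11 between -8 and -6 (217 of 287 genes rose), 0.61 between -6 and -4 (325 of 649) and 0.13 between -4 and -2 (177 of 917). Above -1 every bin had a median between -0.05 and -0.02. Genes in the lowest bin stood at a median of 0.171 ± 0.009% (SD, n = 3 letters) of their supernatant level in fresh IP and 0.599 ± 0.054% in frozen IP, so that a large fold still left them far below the supernatant. Of these 164 genes, 87 reached the low-count limit in all fresh libraries, and 82 of the 87 rose. The other bins were not split by this limit. Their counts and medians can include genes that entered the test through frozen IP, where they are high.

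**Figure D1:**
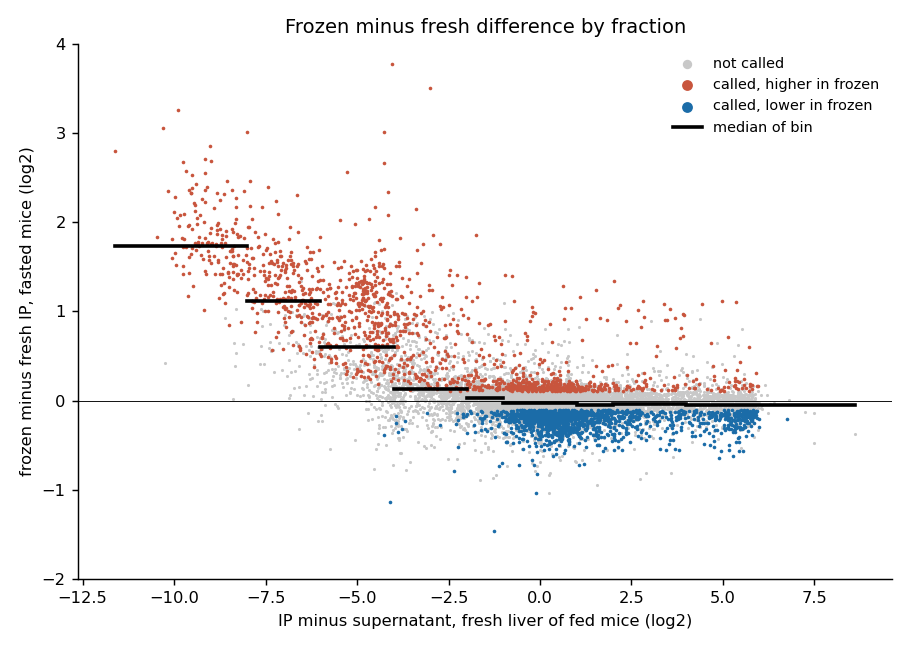
Each point is one of 12513 tested genes. The x axis is the log2 difference between IP and supernatant in fresh liver of fed mice, the y axis the log2 difference between frozen and fresh IP of fasted mice, red and blue mark genes called higher and lower, and black bars are bin medians. The bars fall from 1.74 at the far left to near 0 on the right, where the IP-enriched genes lie.

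Kupffer cell and macrophage markers were among those that rose in frozen IP. Of 22 in the table, 18 passed the filter on low counts, 14 rose and 0 fell. Of the 14 that reached the low-count limit in every fresh library, 11 rose, with a median of 1.59 against -0.02 for all genes that reached it. Over the 18 the median was 1.54 for letter A, 1.25 for B and 1.04 for C. Adgre1, which encodes the macrophage surface protein F4/80, was at 1.27, 1.27 and 1.203 CPM in fresh IP of letters A, B and C and at 5.18, 5.54 and 5.34 CPM in frozen IP. The preparations did not overlap for Adgre1, whose difference was 2.09 ± 0.04 (adjusted p = 5.7e-19). Its level in the supernatants of these mice was 933 ± 135 CPM (SD, n = 3), so both preparations held under 1% of it, namely 0.134% and 0.574%. In bulk libraries fewer cells of a type and less RNA per cell cannot be told apart.

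The haemoglobin scavenger receptor Cd163 rose by 2.26 ± 0.21, from 0.977, 0.735 and 0.812 CPM to 5.66, 3.68 and 2.94 CPM. The complement receptor Vsig4 rose by 2.05 ± 0.13, and the Kupffer cell lectin Clec4f by 1.77 ± 0.21, from 1.39, 1.95 and 1.71 CPM to 6.48, 5.68 and 5.32 CPM. All frozen libraries were above all fresh ones for these 3 genes. Csf1r, the receptor for the main macrophage growth factor, rose by 1.70 ± 0.32, and Ptprc, the CD45 antigen of all leukocytes, by 1.52 ± 0.13. The differences of Fcer1g (-0.04 ± 0.01), Cd68 (0.27 ± 0.10), Mpeg1 (0.42 ± 0.11) and C1qa (0.78 ± 0.24) did not pass. The summed level of the 22 markers was 17.5 to 19.2 CPM in fresh and 44.3 to 53.7 CPM in frozen IP, against 6231 to 8677 CPM in supernatant. The cytokine gene Il1b, from the list of inflammatory genes, was at 0.122, 0.294 and 0.150 CPM in fresh and 1.71, 1.01 and 0.850 CPM in frozen IP, with 227.1 ± 100.96 CPM in supernatant (difference 2.55 ± 0.52, adjusted p = 5.5e-09). Il1b was under the low-count limit in 2 of the fresh libraries and entered the test through frozen IP, so its call is no independent sign of a rise. Of the 11 inflammatory genes that reached the limit in every fresh library, 0 rose, and Socs3, an inhibitor of cytokine signalling, fell by 0.45.

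Endothelial markers rose as a body, with 23 of 24 tested genes higher in frozen IP and 0 lower. All 22 that reached the low-count limit in every fresh library rose. In 23 of the 24 the frozen and fresh CPM did not overlap, against 13.3% of all tested genes. Stab2, the hyaluronan scavenger receptor of sinusoids, stood at 34.4, 36.9 and 18.2 CPM in fresh and 78.9, 61.1 and 49.7 CPM in frozen IP. The difference was 1.08 ± 0.20 (adjusted p = 1.1e-25), but neither Stab2 (adjusted p = 0.24) nor any other tested endothelial marker passed without the block. For Stab2 every letter moved the same way. Pecam1, an adhesion molecule of endothelial junctions, rose by 1.51 ± 0.34, from 1.66, 2.11 and 1.02 CPM to 4.29, 4.64 and 5.10 CPM. The junction cadherin Cdh5 rose by 1.49 ± 0.28 and the VEGF receptor Flt1 by 1.58 ± 0.53. Vwf, the clotting factor carrier of larger vessels, rose by 2.03 ± 0.21. The transcription factor gene Sox17, at a mean of 0.175 CPM in fresh IP, was the member that did not pass (0.29 ± 0.68).

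The endothelial signal also varied between mice. Its summed level was 87.6, 110 and 47.1 CPM in fresh IP and 221, 183 and 163 CPM in frozen IP, and the median difference was 1.28 for letter A, 0.72 for B and 1.82 for C. The fresh library of letter C was thus the lowest and showed the widest gap. As a share of the supernatant level of the same letter, the median endothelial marker rose from 1.502 ± 0.739% to 3.466 ± 1.117% (SD, n = 3 letters, 24 genes), the median macrophage marker from 0.216 ± 0.013% to 0.563 ± 0.113% (21 genes) and the median lymphocyte marker from 0.383 ± 0.179% to 1.08 ± 0.16% (15 genes). These shares cover markers at 10 CPM or more in supernatant. With 3 pairs, an exact sign-flip test cannot go below p = 0.25, so none is given for the sums.

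Of the 24 lymphocyte markers, all present in the count table, 10 were tested, of which 9 were higher and 0 lower. The 3 markers Lck, Bcl11b and Ikzf3 were below the low-count limit in a fresh library and entered through frozen IP, and 6 of the other 7 rose. Ebf1, a B-cell transcription factor, was at 0.830, 1.25 and 0.872 CPM in fresh and 4.75, 4.36 and 4.49 CPM in frozen IP (2.17 ± 0.20, adjusted p = 1.2e-17). Bank1, a B-cell scaffold protein, rose by 1.92 ± 0.05. Skap1, an adaptor of T-cell signalling, rose by 1.77 ± 0.26. For all 3 genes the frozen libraries lay above the fresh ones. Csf3r, the receptor for the neutrophil growth factor, rose by 1.73 ± 0.19 and was the only called gene of 3 tested neutrophil, erythroid and platelet markers. It was below the low-count limit in 1 fresh library.

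**Figure D2:**
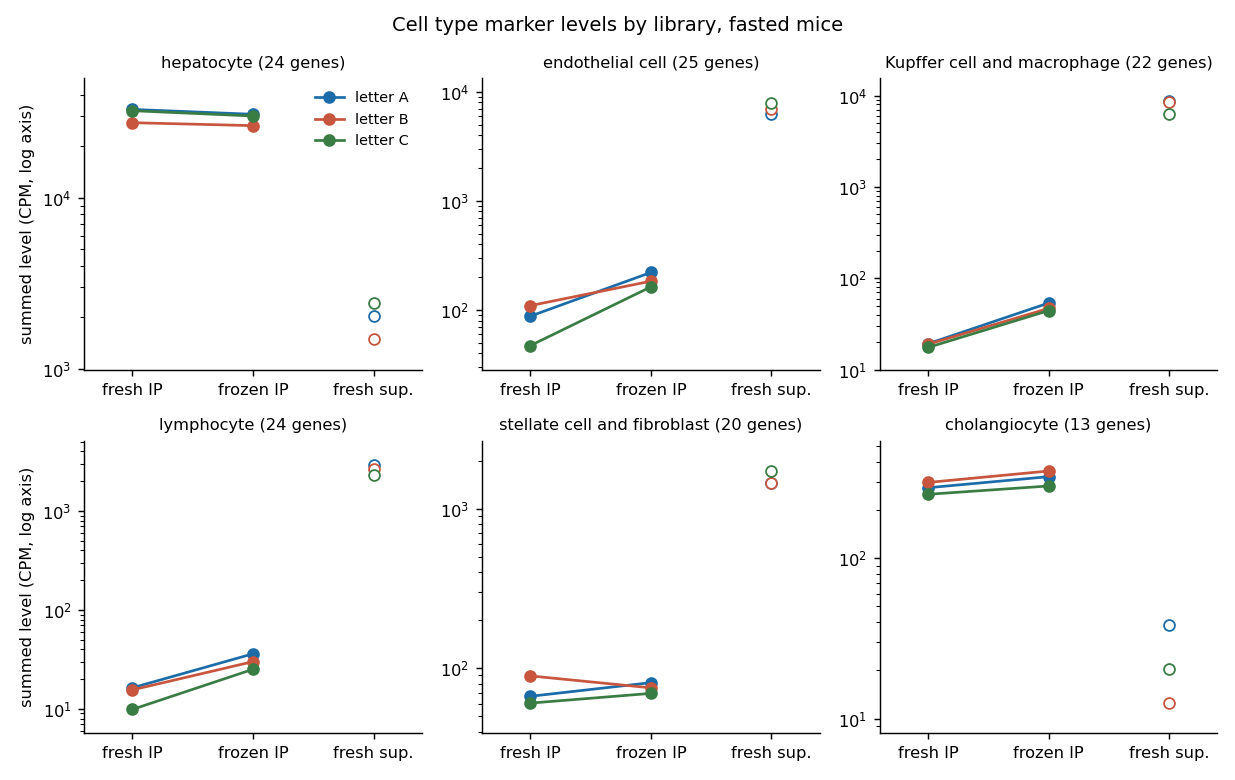
Summed CPM of the marker genes of 6 liver cell types (log axis, a separate scale in each panel) in each fresh IP, frozen IP and fresh supernatant library of fasted mice, with lines joining libraries of one letter. Endothelial, macrophage and lymphocyte lines rise for all 3 letters, whereas the hepatocyte lines are nearly flat and the stellate line of letter B falls.

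Fewer stellate cell and fibroblast markers were called. Of 17 tested genes 4 rose (23.5%, against 11% of all tested genes) and 0 fell. Of the 13 that reached the low-count limit in every fresh library 1 rose, with a median of 0.15. Over all tested genes that reached it, 1148 of 11993 rose, so the 1 of 13 is no excess. The genes typical of resting stellate cells gave differences that did not pass the test. Reln, a secreted matrix protein, was at 34.5, 42.4 and 35.3 CPM in fresh and 41.2, 31.9 and 36.0 CPM in frozen IP (-0.06 ± 0.19, adjusted p = 0.53). Lrat, the enzyme that makes retinyl esters for storage, gave -0.03 ± 0.13, the growth factor gene Hgf -0.07 ± 0.24, Pdgfra 0.02 ± 0.15 and Pdgfrb 0.21 ± 0.13. Fresh and frozen levels overlapped in each of them. In supernatant Reln was at 672 ± 23.2 CPM, and its fresh IP level was 5.57% of that. The stellate markers summed to 1453 to 1723 CPM in supernatant, below the endothelial ones at 6318 to 7887 CPM.

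The stellate list members that rose were 3 collagen genes and Acta2, the smooth muscle actin. Col3a1 was at 0.610, 0.827 and 0.421 CPM in fresh and 1.19, 1.16 and 1.36 CPM in frozen IP (0.95 ± 0.32, adjusted p = 0.00355). Col1a1 rose by 1.28 ± 0.37 at a level of at most 0.461 CPM, and its adjusted p of 0.046 was close to the threshold. Without letter C neither gene was called (adjusted p = 0.11 for Col3a1 and 0.29 for Col1a1), and without letter A Col1a1 was not (0.23). Neither was called with DESeq2 (adjusted p = 0.13 and 0.38). Col1a1 and Acta2 were below the low-count limit in fresh libraries and entered through frozen IP. The remaining collagen gene, Col1a2, was also below that limit in a fresh library. Acta2 had 0, 0 and 1 counts in the fresh libraries and 13, 13 and 35 in the frozen ones, a CPM ratio of 61.6 with an exact 95% interval of 10.6 to 2472 that covers counting error only. The summed stellate level overlapped between preparations (60.3 to 89.4 CPM fresh, 69.5 to 81.1 CPM frozen). As a share of supernatant, the median of 12 stellate markers was 4.06 ± 1.83% in fresh and 4.86 ± 1.38% in frozen IP. The median gain in that share was 0.43 ± 0.67 percentage points for stellate, 0.36 ± 0.04 for macrophage, 0.65 ± 0.14 for lymphocyte and 1.88 ± 0.75 for endothelial markers (SD, n = 3 letters), so on this scale the stellate gain was not set apart from that of macrophages. Whether the gain of stellate markers differs from that of the other cell types was not tested.

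Some genes outside the supernatant class rose as well, among them markers of the bile duct epithelium. Of the 8 tested cholangiocyte (bile duct) markers of 13 in the table, 4 rose and 0 fell, with a median of 0.68. Spp1, the osteopontin gene, was at 0.562, 1.62 and 0.241 CPM in fresh and 1.96, 2.69 and 0.899 CPM in frozen IP (1.243 ± 0.327, adjusted p = 1.7e-05), against 0.451 ± 0.0995 CPM in supernatant. The preparations overlapped for Spp1, since letter B was high and letter C low in both, but each letter rose. The tetraspanin gene Tspan8 rose by 0.94 ± 0.16, the stem cell antigen gene Prom1 by 0.71 ± 0.27 and the fibrocystin gene Pkhd1 by 0.25 ± 0.04. With DESeq2, Tspan8 (adjusted p = 0.13) and Prom1 (adjusted p = 0.058) were not called, nor was Prom1 in the fit of all 12 IP libraries (adjusted p = 0.11). The duct regulator gene Sox9 (-0.24 ± 0.22) did not pass, and the duct keratin gene Krt19, at 0.120 to 0.291 CPM in the 6 libraries, was too low to test.

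The genes of largest rise outside the supernatant class included Grhl2, an epithelial transcription factor, at 0.781, 1.54 and 0.572 CPM in fresh and 2.46, 2.22 and 1.48 CPM in frozen IP (1.08 ± 0.32). Anxa13, an annexin of polarised epithelia, rose by 1.08 ± 0.27 and the laminin chain gene Lamc3 by 1.07 ± 0.21. Fstl4 rose by 1.34 ± 0.25 and Prdm16, a transcriptional regulator, by 1.28 ± 0.24. In the fed mice, Spp1 (1.43 ± 0.10) and Prdm16 (1.06 ± 0.15) were also called higher in frozen IP. Grhl2, Anxa13, Fstl4 and Lamc3 were not called there (edgeR adjusted p = 0.051, 0.051, 0.063 and 0.20). The mesothelial marker Gpm6a, which is higher in supernatant, showed the same order of letters in fresh IP as Spp1, with 4.61, 9.87 and 3.10 CPM, and rose to 11.2, 13.8 and 8.28 CPM (0.96 ± 0.28). In all, 5 genes in neither class and 12 in the IP class were called higher past a fold of 2.

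Hepatocyte markers differed by small amounts, between -0.46 and 0.10 on the log2 scale. Of 24 genes 0 rose and 9 fell (37.5%), with a median of -0.05. All 24 are in the IP class, of which 18.7% of tested genes fell, against 12.1% of all tested genes. Alb, the albumin gene, stood at 3504, 3067 and 3923 CPM in fresh and 3552, 3040 and 3868 CPM in frozen IP (-0.02 ± 0.02, adjusted p = 0.80). Each frozen library matched the fresh library of its letter more closely than it matched the other letters. Apob, the structural protein of lipoproteins, gave 0.10 ± 0.05 and Trf, transferrin, 0.07 ± 0.04, neither called. Cps1, which feeds ammonia into the urea cycle, fell by 0.22 ± 0.03 (SE), from 12661, 8626 and 11731 CPM to 11255, 7545 and 9892 CPM. Cyp7a1, the enzyme that sets the pace of bile acid production, showed the largest decrease of the list, with 17.5, 49.6 and 20.9 CPM in fresh and 11.8, 38.9 and 14.9 CPM in frozen IP (-0.46 ± 0.07, adjusted p = 1.6e-09). For Cps1 and Cyp7a1 all 3 letters fell, yet the preparations overlapped because the mice differ by more than the preparations. Ttr, the thyroxine carrier transthyretin, fell by 0.29 ± 0.05 and Hnf4a, a master regulator of hepatocyte identity, by 0.17 ± 0.06. Without letter A, Cps1 (-0.24, adjusted p = 0.061) and Hnf4a (-0.13, adjusted p = 0.16) were not called.

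The genes that fasting is known to engage differed little between preparations. Among 28 genes that burn fatty acids or make ketones, 1 rose (3.57%) and 4 fell (14.3%), with a median of -0.02. Over all tested genes these shares were 11% and 12.1%. Cpt1a, the gate of mitochondrial fatty acid import, was at 1417, 1007 and 1025 CPM in fresh and 1469, 1056 and 1055 CPM in frozen IP (0.04 ± 0.02, adjusted p = 0.54). The omega-hydroxylase gene Cyp4a14 gave 0.05 ± 0.05, the fasting hormone gene Fgf21 -0.12 ± 0.07 and Pdk4, which restrains glucose oxidation, -0.05 ± 0.08. Ehhadh of peroxisomal oxidation showed the largest decrease of the list, by 0.20 ± 0.02. Of 15 gluconeogenic genes 0 rose and 4 fell (26.7%). Pck1, the entry step, gave 0.01 ± 0.05, while G6pc, the last step of glucose release, fell by 0.31 ± 0.08, from 991, 849 and 1246 CPM to 730, 705 and 1109 CPM. Of 17 genes of bile acid synthesis and transport 0 rose and 10 fell (58.8%), with a median of -0.12. The largest decreases were those of Cyp7a1 and Nr0b2, which encodes the repressor SHP (-0.31). All 17 are in the IP class, of which 18.7% of tested genes fell.

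Scd1, the desaturase that makes monounsaturated fatty acids, was an exception among 31 genes of fatty acid and sterol synthesis, of which 1 rose and 2 fell. It was at 7.91, 15.0 and 5.60 CPM in fresh and 14.7, 25.3 and 12.9 CPM in frozen IP (0.90 ± 0.12, adjusted p = 3.9e-16), and 43.4 ± 7.27 CPM in supernatant. Each letter rose, and the preparations overlapped. Scd1 belongs to the IP class in the fed mice, but in the fasted mice its fresh IP level was 21.9% of that in supernatant. In the fed mice the frozen minus fresh difference of Scd1 was 0.12 ± 0.32, and the difference between the feeding states did not pass (0.80, adjusted p = 0.999).

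Genes of the 2 metabolic zones of the lobule moved by small amounts. Of 19 tested pericentral genes, 5 rose (26.3%) and 2 fell (10.5%), with a median of 0.03. Over all tested genes these shares were 11% and 12.1%. Glul, the glutamine synthetase of the innermost pericentral layer, was at 221, 235 and 110 CPM in fresh and 278, 282 and 149 CPM in frozen IP (0.33 ± 0.04, adjusted p = 3.4e-10). The Wnt target Nkd1 rose by 0.51 ± 0.10, from 8.91, 9.04 and 6.17 CPM to 14.7, 11.9 and 8.33 CPM, the glutamate transporter gene Slc1a2 by 0.23 ± 0.02, the Wnt co-receptor gene Lgr5 by 0.17 ± 0.05 and the ornithine aminotransferase gene Oat by 0.14 ± 0.02. All 3 letters rose for these 5 genes. Nkd1 is in the supernatant class and the other 4 are in the IP class. Cyp7a1 and Tbx3 (-0.15 ± 0.05) of the same list fell. Of 19 periportal genes 1 rose (5.26%) and 6 fell (31.6%, against 18.7% of the IP class, which holds 18 of them), with a median of -0.08. Among those that fell were G6pc, Cps1, Hsd17b6 (-0.17 ± 0.07) and Sds (-0.14 ± 0.08). Ass1 of the urea cycle, at 1.67 to 2.92 CPM, fell by 0.42 ± 0.17 with an adjusted p of 0.0495. Arg1, the last enzyme of that cycle, gave 0.01 ± 0.05. Several of these calls needed all 3 pairs. Without letter B, the adjusted p was 0.092 for Lgr5, 0.075 for Oat, 0.065 for Tbx3, 0.45 for Sds and 0.23 for Ass1. Without letter A it was 0.052 for Oat and 0.22 for Hsd17b6, and without letter C 0.49 for Tbx3 and 0.30 for Ass1. Whether the 2 zones differ was not tested.

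**Figure D3:**
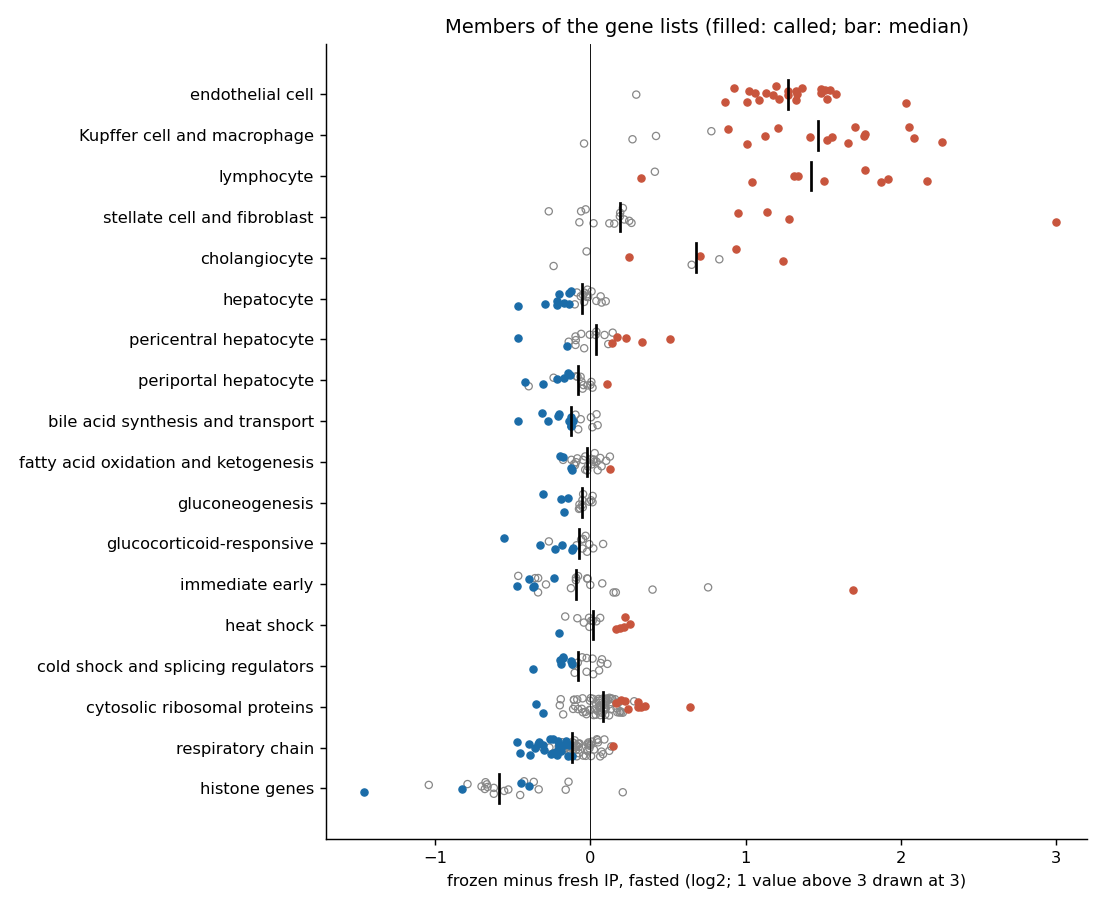
Log2 difference between frozen and fresh IP of fasted mice for the tested members of 18 gene lists, 1 point a gene, filled red or blue where called higher or lower and open where not called, with a bar at the list's median. Endothelial, macrophage and lymphocyte genes lie mostly above 1, whereas the hepatocyte, zonation, bile acid, fatty acid oxidation and gluconeogenesis lists drawn lie between -0.46 and 0.51. Acta2 is drawn at the edge.

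Among genes that handling of tissue can induce, 5 immediate early genes fell and 5 heat shock genes rose, by small amounts. Of 23 tested immediate early genes 1 rose and 5 fell (21.7%, against 12.1% of all tested genes), with a median of -0.09. Fos, the classic early gene, was at 0.464, 0.257 and 0.331 CPM in fresh and 0.776, 0.306 and 0.340 CPM in frozen IP (0.40 ± 0.20, adjusted p = 0.48), against 28.1 ± 20.2 CPM in supernatant. Ier2 fell by 0.47 ± 0.17, the mRNA decay factor gene Zfp36 by 0.40 ± 0.15, Jund by 0.37 ± 0.22, Btg2 by 0.36 ± 0.19 and Jun by 0.24 ± 0.07. Without letter B the adjusted p was 0.057 for Ier2, 0.66 for Jund, 0.34 for Btg2 and 0.25 for Jun. Without letter A it was 0.16 for Ier2 and 0.055 for Jund. None of the 5 was called with DESeq2 (adjusted p from 0.068 for Zfp36 to 0.39 for Jund) or in the fit of all 12 IP libraries (0.15 for Btg2 to 0.38 for Jun). The gene that rose was Ctgf (1.69 ± 0.32), a matrix protein gene of the supernatant class at 0.220, 0.404 and 0.391 CPM in fresh and 1.07, 0.849 and 1.53 CPM in frozen IP. Ctgf was below the low-count limit in 1 fresh library. Of 15 heat shock genes 5 rose (33.3%, against 11% of all tested genes) and 1 fell, all by at most 0.26, and the largest was the cytosolic chaperone Hsp90ab1, with 75.8, 67.9 and 100.9 CPM in fresh and 84.6, 83.5 and 129 CPM in frozen IP (0.26 ± 0.06). The chaperone genes Hspa8 (0.22 ± 0.04) and Hsph1 (0.22 ± 0.05) rose as well. In the fit of all 12 IP libraries none of these 3 was called (adjusted p = 0.16 for Hsp90ab1, 0.085 for Hspa8 and 0.091 for Hsph1). Of 14 genes of the unfolded protein and integrated stress responses 0 rose and 2 fell (14.3%). Atf4, the translationally controlled activator of the integrated stress response, fell by 0.41 ± 0.09.

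Of 16 hypoxia genes 1 rose (6.25%) and 2 fell (12.5%), against 11% and 12.1% of all tested genes. The angiogenic factor gene Vegfa fell by 0.42 ± 0.09, from 307, 368 and 364 CPM to 228, 248 and 310 CPM. Of 19 cold shock and splicing regulators 0 rose and 7 fell (36.8%, against 12.1% of all tested genes), with a median of -0.08. Cirbp, the cold-inducible RNA-binding protein, fell by 0.20 ± 0.06 and the splicing factor gene Srsf10 by 0.37 ± 0.06. Cirbp was not called without letter A, B or C in turn (adjusted p = 0.099, 0.35 and 0.054). Of 16 glucocorticoid-responsive genes 0 rose and 6 fell (37.5%), with a median of -0.07. The metallothionein gene Mt2 was at 15.9, 17.2 and 11.9 CPM in fresh and 12.1, 10.04 and 8.77 CPM in frozen IP (-0.55 ± 0.11, adjusted p = 2.2e-08), and its neighbour Mt1 fell by 0.32 ± 0.15 (adjusted p without letter B 0.14). In the fed mice Mt2 gave -0.06 ± 0.08, and the difference between feeding states was not called.

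Decreases occurred in genes of every structure, and the difference was lowest in single-exon genes. Of the lower calls, 1088 were in genes of 5 or more exons, 397 in genes of 2 to 4 exons and 42 in single-exon genes, which is 10.5%, 18.7% and 22.6% of the genes tested of each kind. The intronless gene Epm2aip1, which encodes a partner of the glycogen phosphatase laforin, showed the largest decrease among called genes of the IP class with a mean of at least 1 CPM. It is on chromosome 9 at 111271845 to 111279091 of mm10 and was at 38.5, 45.7 and 45.0 CPM in fresh and 23.1, 26.9 and 29.2 CPM in frozen IP (-0.73 ± 0.03, adjusted p = 1.2e-19). The preparations did not overlap, and it was one of the 2 genes called lower without the block (adjusted p = 0.046). The other was Pigm, a single-exon gene for a GPI anchor mannosyltransferase on chromosome 1 at 172376531 to 172384099, at 17.0, 19.3 and 19.97 CPM in fresh and 11.4, 11.1 and 11.9 CPM in frozen IP (-0.72 ± 0.07, adjusted p without the block 0.041). Purb, a single-exon gene for a nucleic acid binding protein, fell by 0.50 ± 0.02. Nufip2, with 4 exons, fell by 0.57 ± 0.02, from 154, 155 and 193 CPM to 105, 102 and 136 CPM, without overlap.

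Over genes outside the supernatant class, 0 of 141 tested single-exon genes rose and 35 fell, with a median of -0.29 (-0.17, -0.36 and -0.25 for letters A, B and C). The median was -0.11 for 1612 genes of 2 to 4 exons (34 rose, 359 fell) and -0.02 for 6861 genes of 5 or more (340 rose, 950 fell). By distance from start to end, the median ran from -0.09 for 1060 genes under 5 kb to 0.05 for 374 genes over 200 kb, of which 96 rose and 27 fell. Length and exon share go together, so genes of 5 to 20 kb were looked at alone. The 21 of these with exons over at least 80% of their span had a median of -0.20 and 7 fell, against -0.05 for the 1135 genes with exons over 10 to 20% (21 rose, 186 fell). The median of the 28 genes with exons under 5% was -0.16 and 10 fell, so exon share and difference were not in a single order at this length. Single-exon genes took 0.075 to 0.094% of all counts in fresh and 0.065 to 0.072% in frozen IP. From lowest to highest transcript GC in 5 groups of genes outside the supernatant class, the medians were -0.08, -0.04, -0.03, -0.01 and -0.03. Of the 1723 genes of lowest GC 36 rose and 454 fell, and of those of highest GC 65 rose and 165 fell. Letter B had its lower median at the highest GC (-0.08, against -0.05 at the lowest), and so had the fed mice (-0.10 against -0.03). The part of GC content in these decreases was not tested.

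**Figure D4:**
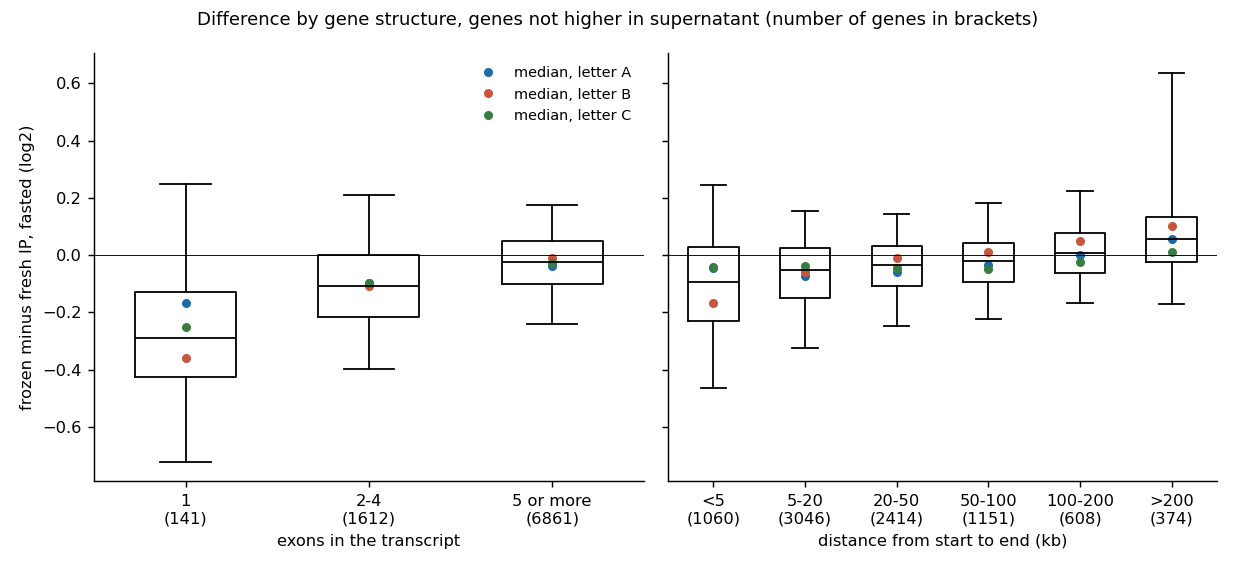
Log2 difference between frozen and fresh IP of fasted mice by number of exons (left) and by distance from start to end in kb (right), for tested genes not higher in supernatant in fed mice. Boxes span the quartiles with the median, whiskers the 5th to 95th percentiles, and coloured points are the medians of each letter. Single-exon genes lie lowest in all 3 letters.

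Short genes of housekeeping complexes did not all move one way. Of 75 tested respiratory chain genes 1 rose and 25 fell (33.3%), with a median of -0.12, against 12.1% of all tested genes and 18.7% of the IP class, which holds 65 of them. In 23 of the 75 (30.7%) the preparations did not overlap, against 13.3% of all. The complex I subunit gene Ndufb3 was at 14.6, 15.6 and 11.1 CPM in fresh and 10.6, 10.4 and 8.99 CPM in frozen IP (-0.47 ± 0.07). Ndufa6 fell by 0.45 ± 0.07 and the complex III subunit gene Uqcrq by 0.39 ± 0.04. Of 76 cytosolic ribosomal protein genes 9 rose and 2 fell, with a median of 0.08, and the share that rose (11.8%) was near the 11% of all tested genes. Rplp1, of the ribosomal stalk, was at 2.93, 2.54 and 2.71 CPM in fresh and 5.20, 3.37 and 4.44 CPM in frozen IP (0.64 ± 0.12). Ribosomal protein genes have many processed copies in the genome and share reads with them, so their values are uncertain. Of 22 tested histone genes of 62 in the table, 0 rose and 4 fell, with a median of -0.59. Of all tested genes 12.1% fell and of single-exon genes 22.6%, against 18.2% of these 22 histone genes. Most of them were at the limit of counting, as Hist1h2bg was at 0.244, 0.257 and 0.271 CPM in fresh and 0.069, 0.071 and 0.146 CPM in frozen IP (-1.46 ± 0.20, adjusted p = 0.045). This gene entered the test through fresh IP, where it is high. Without letter A, B or C in turn its adjusted p was 0.22, 0.16 and 0.072. Histone genes also occur in near-identical copies.

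The called genes of highest CPM per kb of gene were mostly small decreases in liver-specific transcripts. Errfi1, a feedback inhibitor of EGF receptor signalling, fell by 0.18 ± 0.02, and Mat1a, which makes the methyl donor S-adenosylmethionine, by 0.17 ± 0.01. Rbp4, the plasma carrier of vitamin A, fell by 0.31 ± 0.04, and Cyp3a25, whose paralogs can share its reads, by 0.25 ± 0.04. Cdk8, a kinase of the Mediator complex, was the exception with 5769, 8103 and 6464 CPM in fresh and 9910, 7910 and 9080 CPM in frozen IP, and 11586 ± 2003 CPM in supernatant. Its difference of 0.40 ± 0.23 was called (adjusted p = 8.1e-08) although letter B fell, and was not called with DESeq2 (adjusted p = 0.33). Without letter A, Cdk8 (0.21, adjusted p = 0.096), Errfi1 (-0.17, adjusted p = 0.14) and Mat1a (-0.17, adjusted p = 0.11) were not called. Apoe, the lipoprotein ligand that macrophages make as well, rose by 0.33 ± 0.11.

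The fed mice share no library with the comparison and give the same contrast in other animals. With the letter as a block, 181 of 12689 genes were called in the fed mice (1.43%), 176 higher (1.39%) and 5 lower (0.0394%). One of the fed frozen libraries held 13828945 counts, the lowest total of the series. Of the fed calls, 174 higher and 5 lower were tested in both feeding states, and all 179 had been called in the same direction in the fasted mice, 174 of 1359 higher (12.8%) and 5 of 1535 lower (0.326%). Of the 1359 genes that rose in fasted mice 94.4% had a positive difference in the fed mice, against 46.2% of all genes tested in both, and of the 1535 that fell 90.4% had a negative one. Across 12419 genes, which are not independent, the correlation of the 2 differences was r = 0.844 (rho = 0.564). Adgre1 rose by 2.61 ± 0.25 in fed mice, Vsig4 by 2.85 ± 0.19, Ebf1 by 2.03 ± 0.28 and Pecam1 by 1.66 ± 0.32, and Epm2aip1 fell by 0.50. The list medians in fed mice were 1.39 for endothelial, 1.86 for macrophage, 1.35 for lymphocyte, 0.32 for stellate and -0.05 for hepatocyte markers. The difference between the feeding states was itself tested over 13162 genes in the 12 IP libraries with edgeR, and 0 genes were called, with 278 at an unadjusted p under 0.05.

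**Figure D5:**
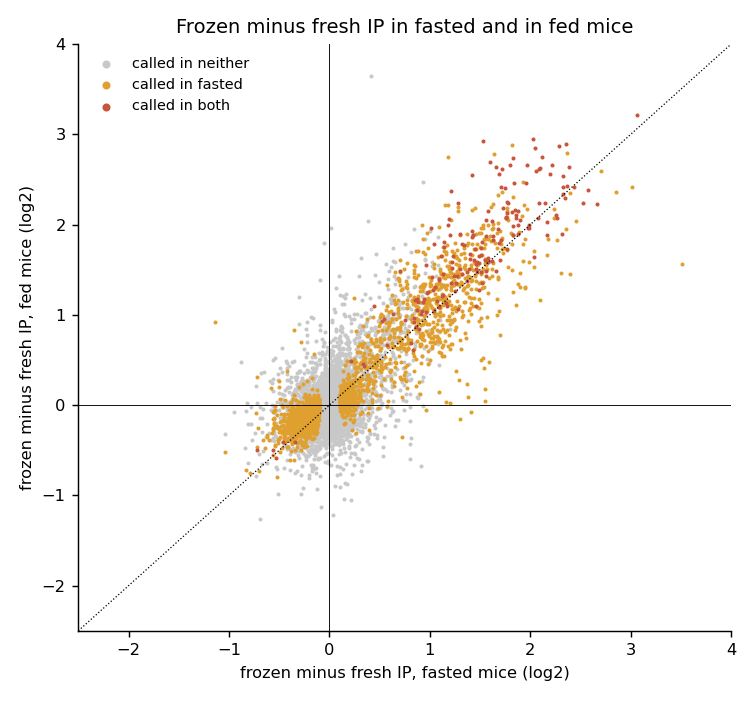
Log2 difference between frozen and fresh IP in fasted mice (x axis) and in fed mice (y axis) for genes tested in both, coloured by call, with the line of equal difference dotted and 2 genes outside the axes. Genes called in both lie near that line, and the 2 differences correlate at r = 0.844 across genes.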

How the data were processed

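RNA was taken from nuclei with Trizol, columns and DNase, per the labels' protocols, and 50 to 100 ng of total RNA entered a stranded kit without poly-A selection for 50 bp paired reads. The submitters' processing notes name STAR 2.4.2a, DESeq2 1.24.0 and mm10. How reads were counted, with which annotation and strand setting, is not stated in the sources used here, and overlapping antisense genes and near-identical paralogs cannot be told apart. The authors deposited raw counts for 20105 genes, each with a coding RefSeq accession and a length that spans start to end, introns included. Long noncoding genes were not analysed here. A further 6 count columns matched no sample and were not used.

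Frozen and fresh IP libraries of fasted mice were compared with edgeR 4.0.16 in R 4.3.3 (glmQLFit, glmQLFTest, TMM, filterByExpr), with the letter as a block because same-letter libraries deviated together. Letters stand in no label, and mouse numbers in the titles show that fresh and frozen libraries come in pairs. Log2 differences are frozen minus fresh, errors are the SD over the 3 pairs (log2 CPM, prior count 2) divided by the square root of n, and levels are CPM without TMM. Gene classes came from edgeR on fresh IP and supernatant of fed mice, exon structure from GENCODE M21 for 98.9% of genes. The fit was run on simulated counts with a single dispersion for all genes and the same preparation effect in every pair. That run checked the recovery of added changes only, and cannot bear on how many genes the block calls in the real data. Named were the 6 genes of largest difference by direction and class with a mean of at least 1 CPM and one sign in all pairs, the 10 called genes of highest CPM per kb, up to 4 genes a list and all markers. Arg1, Btg2, Cpt1a, Cyp4a14, Fgf21, Fos, Hsd17b6, Jun, Jund, Krt19, Lgr5, Oat, Pck1, Pdk4, Tbx3 and Zfp36 were named after their values were seen. The members and lists were chosen with earlier results of these data known. Alternatives are given in the closing section.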

Additional observations from a re-analysis of the deposited data

How the results depend on the processing

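The main comparison, paired by letter as a replicate block, called 2939 genes. With no replicate block it called 63 genes, 61 higher and 2 lower, all among the 2939. In the alternatives chosen after seeing the data, no block and one library left out gave 0 genes without fresh or frozen A or B and 1 gene, which was higher, without fresh or frozen C. DESeq2 with the letter in the design called 1534 (757 higher, 777 lower, 1527 shared), all 12 IP libraries in one fit 910 (541, 369), which lose 17 and 28 of the 81 called genes named in the text (both lose Ass1, Btg2, Cdk8, Cirbp, Col1a1, Col3a1, Hist1h2bg, Ier2, Jun, Jund, Nr0b2, Prom1, Socs3, Syne1, Tbx3 and Zfp36), a test against a fold of 1.2 738 (659, 79), and the fit without genes of the supernatant class, also added after seeing the data, 1694 (814, 880) of 8653. Scaling on the IP class gave 900 lower genes, and a threshold of 0.01 gave 983. Leaving out a pair gave 1914 to 2297 calls, 931 to 1263 higher and 983 to 1133 lower. The other filters and scalings stayed within 1.5 times. Among 30 lists, 7 medians changed sign under another scaling, all at most 0.04 from 0 in the main comparison. Of 81 named genes that were called, 72 kept their sign throughout. The others turned only without the block and with one library left out, where the groups no longer hold the same mice: without fresh A Hsph1 (-0.092), Mat1a (0.27) and Sds (0.084), without fresh B Cyp7a1 (0.14) and Ehhadh (0.27), without fresh C Nr0b2 (0.067), Oat (-0.087) and Tbx3 (0.16), without frozen A Oat (-0.24), without frozen B Nr0b2 (0.088) and Sds (0.10), and without frozen C Ehhadh (0.15), Hsph1 (-0.33), Jun (0.044) and Mat1a (0.058). The cause of the other shifts was not tested. The test of the difference between feeding states called 0 genes under every alternative run, with 43 to 762 at an unadjusted p under 0.05, and the gene classes stayed within 1.5 times. Markers under about 0.2 CPM rest on few reads, and 14 of 24 lymphocyte and 10 of 13 neutrophil, erythroid and platelet markers were too low to test.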

Other observations

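For the lists not described above, the shares called can be read against 11% higher and 12.1% lower over all tested genes. Of 17 circadian clock genes 2 rose (11.8%) and 3 fell (17.6%), led by Tef, a PAR-domain transcription factor, at 63.7, 84.0 and 87.3 CPM in fresh and 45.4, 57.1 and 72.2 CPM in frozen IP (-0.45 ± 0.08, adjusted p = 4.3e-13 with edgeR). Of 18 genes of xenobiotic metabolism 0 rose and 5 fell (27.8%), with Cyp2c29, whose paralogs can share its reads, lowest at -0.35. Of 37 proteasome genes 4 rose (10.8%) and 5 fell (13.5%), of 12 p53 targets 0 rose and 2 fell (16.7%), and of 17 cell cycle genes none passed. Of 34 secreted plasma protein genes 2 rose and 6 fell (17.6%). That list holds several hepatocyte markers as well. Of 12 nuclear envelope genes 1 rose and 1 fell. The one that rose was Syne1, which links the nucleus to the cytoskeleton, at 2.47, 4.21 and 12.1 CPM in fresh and 7.78, 5.68 and 14.9 CPM in frozen IP and 140 ± 3.07 CPM in supernatant (0.69 ± 0.43, adjusted p = 3.7e-06), and it was not called with DESeq2 (adjusted p = 0.27).

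Ncapd2, a condensin subunit of 32 exons, is a gene of the supernatant class described here after its values were seen. It was at 45.6, 43.2 and 54.5 CPM in fresh and 26.4, 28.1 and 34.5 CPM in frozen IP, without overlap (-0.70 ± 0.05, adjusted p = 2.2e-19). The gene gave -0.73 ± 0.22 in the fed mice (adjusted p = 0.054). All genes of that class together took 12.6 to 13.3% of the counts in fresh and 13.7 to 14.1% in frozen IP.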
